A study of Mus musculus with 12 samples.

Results

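Integrins are cell surface receptors built from 1 alpha and 1 beta chain, and laminins are basement membrane proteins built from an alpha, a beta and a gamma chain. The genes described are all those whose platform symbol is Itga or Itgb followed by a number (Itgam and the integrin-binding proteins Itgb1bp and Itgb3bp left out), or Lama, Lamb or Lamc followed by a number. They are 30 of the 18193 genes with a probe set of their own: 11 integrin alpha, 9 integrin beta and 10 laminin chain genes, with 65 probe sets. The brightest probe set, by its mean over the 12 arrays, stood for each gene, and the rule used no difference between groups. Of the 30 genes, 26 lay above the filter on low signal and were tested. Itga2, Itgb3, Itgb8 and Lama1 did not, with signals of 11.2 to 132, 4.81 to 96.5, 22.7 to 63.9 and 2.09 to 27.2 over the 12 arrays.

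The study measured RNA from skeletal muscle of mice lacking both Stat5a and Stat5b (KO) and of wild-type mice (WT), with or without growth hormone (GH), on 1-colour Affymetrix mouse arrays. The 4 groups of 3 arrays were KO with GH, WT with GH, KO without GH and WT without GH. STAT5A and STAT5B are transcription factors that the growth hormone receptor activates. The treatment label speaks of mice with or without both genes in blood cells, and no driver of the deletion, GH dose, duration, sex or age is given in the sources used here. Each title carries an animal number of its own, and beyond that nothing in the labels shows that the arrays come from separate animals. The p-values therefore measure the spread between these arrays.

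Muscle fibres are wrapped in a basement membrane whose main laminin contains the alpha 2 chain, and loss of that chain causes a congenital muscular dystrophy in mice and humans. The integrin of alpha 7 and beta 1 and the dystroglycan complex both bind this laminin and anchor the fibre to it. Other integrins bind fibronectin and its relatives, collagens, or, on leukocytes, partners on endothelium. The RNA came from whole tissue, in which fewer cells of a type and less RNA per cell cannot be told apart.

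Stat5b signal was 333, 378 and 374 in KO with GH, against 1694, 1792 and 1896 in WT with GH. Without GH it was 497, 372 and 415 in KO, against 2955, 2640 and 2866 in WT. Stat5a signal was 196, 129 and 159 in KO with GH, against 384, 436 and 385 in WT with GH. Without GH it was 361, 232 and 170 in KO, against 730, 589 and 561 in WT. KO over WT was 0.433-fold with GH and 0.415-fold without for Stat5a, a weaker loss than the 0.212-fold and 0.158-fold for Stat5b. For both genes every KO array lay below every WT array, as the labels have it. Whether the probe sets lie inside the deleted parts was not examined. The 11 skeletal muscle fibre markers all stood at or above percentile 99.7 of the genes, while leukocyte markers had a median percentile of 59, endothelial markers 70.5, fibroblast markers 95.7, smooth muscle and pericyte markers 81, adipocyte markers 86.5, Schwann cell markers 50.2, satellite cell markers 46.6, keratinocyte markers 37.1 and platelet markers 33.4. Arrays KO 3 and WT 1 correlated least with their own groups (mean r of 0.9793 and 0.9799, against 0.9824 to 0.9891 for the other 10), and counts without both are given below. The arrays with GH differed from those without in the spiked poly-A controls (442 to 467 against 129 to 168), in median signal (97.4 to 102 against 79.3 to 92.4) and in the beta actin 3′ to 5′ signal ratio (0.887 to 1.01 against 0.805 to 0.864). In the titles, every animal number with GH begins with the letter M, and none without GH does. GH treatment cannot be told apart from a difference between these numbering series. Nor can it be told apart from a batch of labelling, which no label names. The actin ratio also separated KO with GH (0.962 to 1.01) from WT with GH (0.887 to 0.932). A fit with this ratio as a covariate ended every call on a member except Itgb6 with GH in WT (1.29, limma adjusted p = 0.0343), and its values stand beside the genes they concern. Over all genes that fit also called fewer. For GH in KO it called 73 higher and 18 lower, against 1130 and 1948 in the main fit. For GH in WT it called 248 and 211, against 927 and 1489. For KO over WT with GH it called 77 and 44, against 306 and 267. Because the ratio follows GH and separates KO with GH from WT with GH, that fit has a wider error for both comparisons.

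The promoters of 4 members are shown because the results below turn on them or because they hold a STAT-type motif. Itga5 is the member that differed between KO and WT, Lama2 the main laminin alpha chain of muscle, and Itga10 and Lamb2 the members whose promoter holds the motif TTCNNNGAA, the palindrome that STAT dimers bind. Sequences are RefSeq's for GRCm38.p6, 250 bases before to 50 after a start site listed for the gene, on its own strand, 5′ to 3′. That start site is not always the outer end of the gene. The Lama2 stretch lies almost wholly inside the gene coordinates given below. Capitals mark motif matches on either strand.
Itga5 at chr15:103366742-103367041, minus strand: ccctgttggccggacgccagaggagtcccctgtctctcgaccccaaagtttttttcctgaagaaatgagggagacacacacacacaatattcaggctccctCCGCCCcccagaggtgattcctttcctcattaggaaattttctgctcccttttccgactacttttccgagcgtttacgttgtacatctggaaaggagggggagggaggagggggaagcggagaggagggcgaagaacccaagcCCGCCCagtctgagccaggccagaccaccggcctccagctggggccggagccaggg
Lama2 at chr10:27616893-27617192, minus strand: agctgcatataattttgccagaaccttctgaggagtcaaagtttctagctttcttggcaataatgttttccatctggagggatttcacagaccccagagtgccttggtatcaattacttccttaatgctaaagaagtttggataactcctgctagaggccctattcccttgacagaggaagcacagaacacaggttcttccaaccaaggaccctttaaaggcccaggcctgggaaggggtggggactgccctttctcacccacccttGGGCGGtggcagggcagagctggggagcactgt
Itga10 at chr3:96645334-96645633, plus strand: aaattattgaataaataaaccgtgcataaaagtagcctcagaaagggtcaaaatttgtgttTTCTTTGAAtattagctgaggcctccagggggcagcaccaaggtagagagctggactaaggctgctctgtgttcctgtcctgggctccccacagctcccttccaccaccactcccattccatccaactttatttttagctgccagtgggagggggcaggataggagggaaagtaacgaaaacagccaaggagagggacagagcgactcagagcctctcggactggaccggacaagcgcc
Lamb2 at chr9:108479612-108479911, plus strand: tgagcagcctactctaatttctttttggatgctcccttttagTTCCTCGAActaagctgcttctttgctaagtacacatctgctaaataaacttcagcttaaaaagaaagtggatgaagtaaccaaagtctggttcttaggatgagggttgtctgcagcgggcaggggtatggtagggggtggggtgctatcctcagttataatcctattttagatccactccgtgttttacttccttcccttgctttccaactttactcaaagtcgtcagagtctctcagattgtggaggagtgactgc
Of the 30 members, 20 had a promoter in the RefSeq table. TTCNNNGAA occurred in 2 of the 20, and 8.3% of all 32851 promoters hold it. TGANTCA, the AP-1 motif, occurred in 2 (Itga3 and Itga9), against 7.81% of all promoters. Both stretches with it surround start sites inside the genes. They begin at 95069149 for Itga3 (gene at chr11:95044475-95076844) and at 118711442 for Itga9 (gene at chr9:118606709-118901003). GGGCGG, bound by SP and KLF factors, occurred in 9, against 35.7% of all promoters. In Itga5 it lies on the opposite strand (CCGCCC) with its first base at -149 and -6 from the start site, and in Lama2 at 18. The STAT-type match begins at -189 in Itga10 (TTCTTTGAA) and at -208 in Lamb2 (TTCCTCGAA). The member counts above are of genes, while the shares are of promoters. Counted by promoter, TTCNNNGAA occurred in 2 of the 23 member promoters, TGANTCA in 2 and GGGCGG in 10. The motifs were searched as written, both strands, and a match is a string of letters and no evidence of binding.

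Itga5 was the 1 integrin or laminin gene that differed between KO and WT. It encodes the alpha 5 chain, which pairs with beta 1 to form the main fibronectin receptor, and lies at chr15:103344286-103366791 of GRCm38.p6. Signal was 460, 337 and 367 in KO with GH, against 216, 148 and 175 in WT with GH. Without GH it was 226, 156 and 146 in KO, against 162, 114 and 189 in WT. The 3 KO arrays with GH lay above all 9 others, while KO and WT without GH overlapped. With GH the log2 fold change of KO over WT was 1.01 ± 0.205 (SE, n = 3 arrays a group, limma adjusted p = 0.00767), a 2.02-fold difference. Without GH it was 0.16 ± 0.205 (limma adjusted p = 0.837). GH over no GH gave 1.05 ± 0.205 in KO (limma adjusted p = 0.00195) and 0.19 ± 0.205 in WT (limma adjusted p = 0.563). The interaction, which tests whether these differ, was 0.86 ± 0.291, with an unadjusted limma p of 0.00995 and an adjusted p of 0.279, so the call with GH is not shown to differ from the value without it. The comparisons of KO with GH against WT with GH and against KO share the 3 arrays of KO with GH.

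The 4 probe sets of Itga5 all read higher in KO than in WT with GH, by 0.48 to 1.01 on the log2(signal + 25) scale, but the other 3 lay below the signal filter and were not tested. Their mean signals in KO with GH were 97.6, 113 and 66.3, against 62.5, 56.3 and 27.6 in WT with GH. The call was lost without array KO_GH 1, at 0.89 with a limma adjusted p of 0.0567, and with the actin ratio as a covariate, at 1.05 with a limma adjusted p of 0.242. With that covariate GH in KO was 1.11 (limma adjusted p = 0.436). The mean of both genotype differences was 0.59 ± 0.145 (limma adjusted p = 0.027), and leaving out any 1 of 6 arrays (KO_GH 1, KO_GH 3, WT_GH 2, WT_GH 3, KO 1 or WT 2) gave adjusted p-values of 0.0577 to 0.0862. Averaging its probe sets gave a mean genotype difference of 0.44 (limma adjusted p = 0.108), and the actin ratio as a covariate gave 0.60 (limma adjusted p = 0.228).

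**Figure D1:**
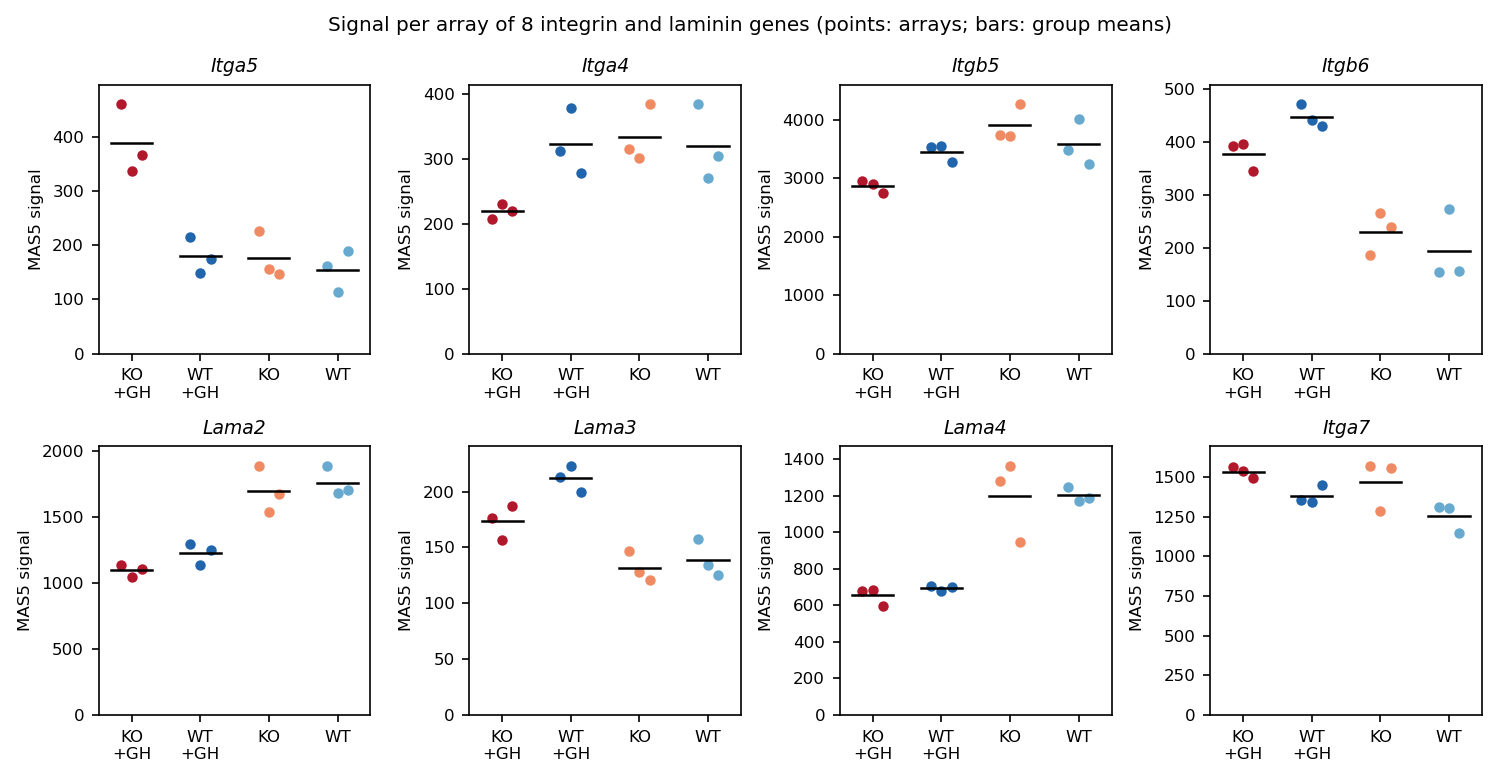
MAS5 signal (linear scale, axis from 0) on each array for Itga5, Itga4, Itgb5, Itgb6, Lama2, Lama3, Lama4 and Itga7 in KO with GH, WT with GH, KO and WT, with bars at the mean of 3 arrays. Itga5 stands at 337 to 460 in KO with GH, above the 114 to 226 of the other 9 arrays, and Lama4 at 598 to 705 with GH, below the 945 to 1363 without.

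Between KO and WT without GH, 0 of the 26 members passed the threshold, where limma called 0.774% of the 12654 genes tested higher and 0.68% lower, and 2 had an unadjusted p under 0.05. These were Lamc3, which encodes a gamma chain, at 0.60 ± 0.216 (limma adjusted p = 0.252), and Itga7 at 0.22 ± 0.0928 (limma adjusted p = 0.354). Lamc3 signal was 157, 105 and 127 in KO, against 76.4, 85 and 67.6 in WT, with no overlap, and with GH it was 79.6, 104 and 102 in KO, against 77.1, 80.5 and 114 in WT. A second Lamc3 probe set above the filter gave 0.25 for KO over WT without GH and -0.36 with GH. With GH, 1 of 26 members was called higher in KO, where 2.42% of all genes were higher, and 0 lower, where 2.11% were. The median log2 fold change of the 26 was 0.01 without GH and 0.07 with GH, against -0.003 and -0.016 over all genes. For the mean of both genotype differences, limma called 1 member higher (2.88% of all genes) and 0 lower (2.47%). For the interaction 0 of 26 passed, where 0.624% of all genes passed with a positive and 0.308% with a negative value, and 3 had an unadjusted p under 0.05: Itgb5 (0.00648), Itga5 (0.00995) and Itga4 (0.0196).

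GH was accompanied by lower laminin alpha 4 and alpha 2 RNA and by higher integrin beta 6 RNA in both genotypes, of which only Itgb6 in WT kept its call with the actin ratio as a covariate. In WT, limma called 2 of 26 members higher (Itgb6 and Lama3), where 7.33% of all genes were higher, and 2 lower (Lama4 and Lama2), where 11.8% were lower. In KO it called 2 higher (Itga5 and Itgb6), where 8.93% of all genes were, and 4 lower (Lama4, Lama2, Itgb5 and Itga4), where 15.4% were. A further 6 members in WT and 8 in KO had an unadjusted p under 0.05 without passing. The median log2 fold change of the 26 was 0.03 in WT and -0.02 in KO, against -0.055 and -0.065 over all genes.

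**Figure D2:**
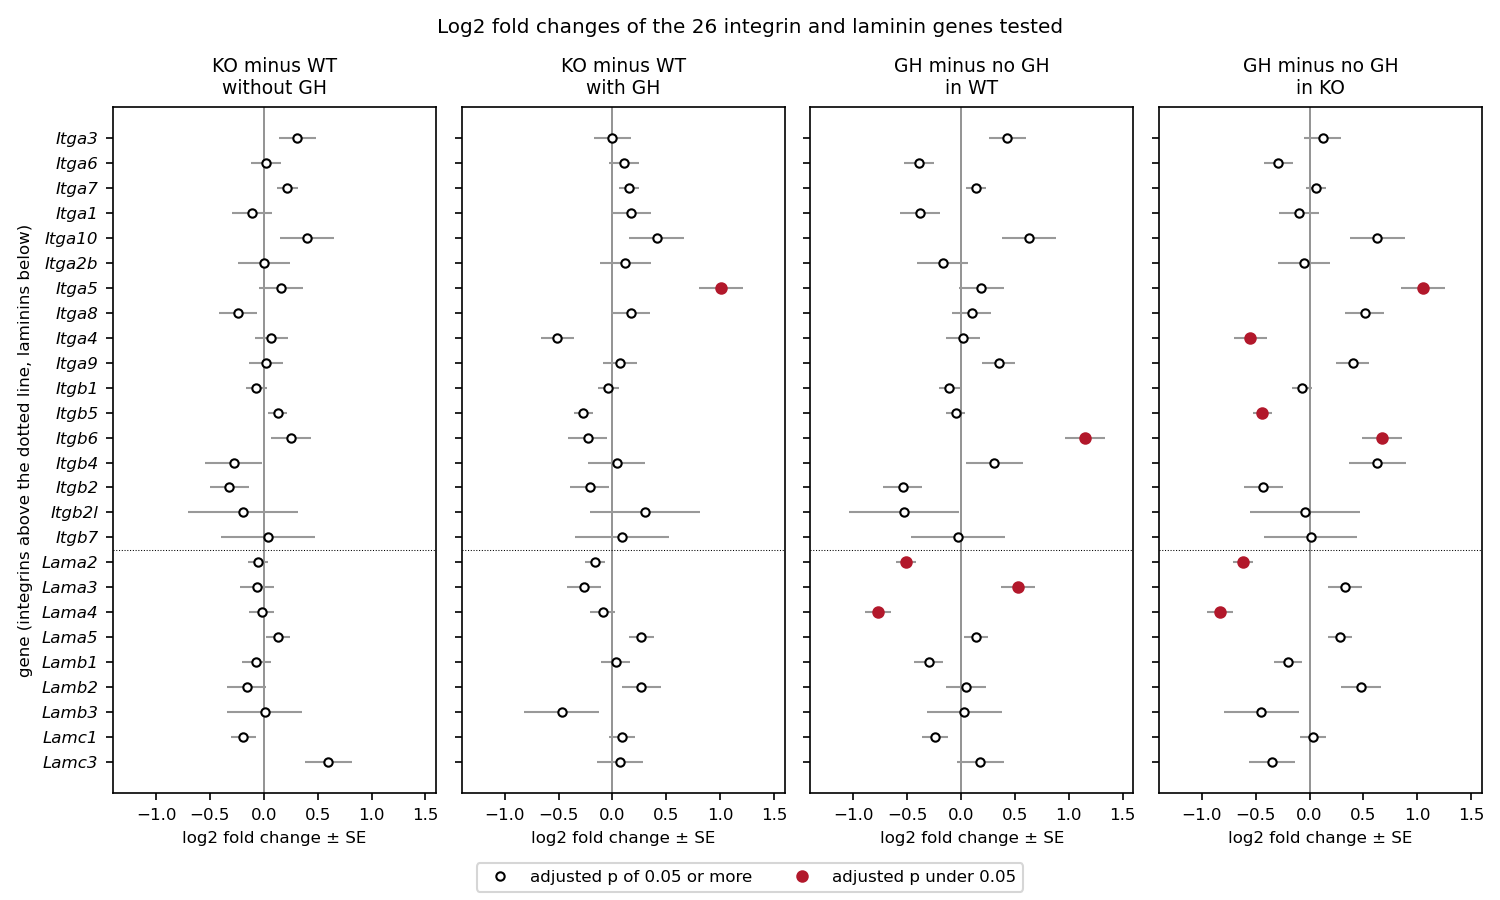
Log2 fold change with its standard error (x axis) for the 26 integrin and laminin genes tested (y axis), in the panels KO minus WT without GH, KO minus WT with GH, GH minus no GH in WT and GH minus no GH in KO, with filled red points where the limma adjusted p is under 0.05. There are 0, 1, 4 and 6 filled points in the 4 panels.

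Lama4, at chr10:38965515-39110188, encodes the alpha 4 chain that is prominent in the basement membrane of blood vessels. Its signal was 679, 685 and 598 in KO with GH, against 1281, 1363 and 945 in KO without. In WT it was 705, 680 and 700 with GH, against 1247, 1171 and 1186 without. The 6 arrays with GH lay below the 6 without. The log2 fold change was -0.83 ± 0.118 in KO (limma adjusted p = 0.000161) and -0.77 ± 0.118 in WT (limma adjusted p = 0.000428). A dimmer second probe set did not show it: its mean signal was 97.8 in KO with GH against 103 in KO, and 113 in WT with GH against 87.8 in WT. Averaging both probe sets gave a value in WT of -0.24 (limma adjusted p = 0.252). With the actin ratio as a covariate it was -0.78 in KO and -0.74 in WT (limma adjusted p = 0.328 and 0.0563).

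Lama2, at chr10:26981285-27617191, encodes the alpha 2 chain of the laminin around muscle fibres and has 1 probe set. Its signal was 1136, 1049 and 1109 in KO with GH, against 1886, 1540 and 1676 in KO without. In WT it was 1299, 1139 and 1251 with GH, against 1890, 1686 and 1709 without. Again the groups with and without GH did not overlap. The log2 fold change was -0.62 ± 0.0926 in KO (limma adjusted p = 0.000255) and -0.51 ± 0.0926 in WT (limma adjusted p = 0.00147). The fit with the actin ratio gave -0.49 in KO and -0.44 in WT (limma adjusted p = 0.444 and 0.134). KO over WT was -0.16 with GH and -0.05 without (limma adjusted p = 0.425 and 0.89).

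Lama3, on chromosome 18, encodes the alpha 3 chain of epithelial basement membranes. Its signal was 213, 223 and 200 in WT with GH, against 158, 134 and 125 in WT without. The WT groups did not overlap, and the log2 fold change was 0.53 ± 0.157 (limma adjusted p = 0.027). In KO it was 176, 157 and 187 with GH, against 147, 128 and 121 without, at 0.33 ± 0.157 (limma adjusted p = 0.136). The call in WT was lost without any 1 of the WT arrays with GH or of WT 2 or WT 3 (adjusted p of 0.053 to 0.0907). With quantile normalization it was 0.41 (limma adjusted p = 0.0795), and with arrays centred on the median of all probe sets 0.35 (limma adjusted p = 0.113). Averaged over both probe sets it was 0.16 (limma adjusted p = 0.647), with the actin ratio 0.64 (limma adjusted p = 0.206), and with only the 2 WT groups in the fit the adjusted p was 0.0649. Lamb3, its usual beta partner, was dim at 16.8 to 111 over the 12 arrays and had log2 fold changes of -0.45 in KO and 0.03 in WT (limma adjusted p = 0.385 and 0.962). Of 3 keratinocyte markers tested, only Krt5 was called for GH, higher in both genotypes (0.83 in KO and 0.89 in WT, limma adjusted p = 0.0158 and 0.0131). Of all genes, 8.93% were higher in KO and 7.33% in WT. The 3 markers ran from -0.28 to 0.83 in KO and from -0.03 to 0.89 in WT. In KO over WT with GH, 1 of the 3 was called lower (limma adjusted p = 0.033), where 2.11% of all genes were lower. The summed signal of the 5 markers measured was 522 to 693 in KO with GH, 717 to 874 in WT with GH, 568 to 606 in KO and 558 to 646 in WT. Their part in the Lama3 value was not tested.

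Among the other laminin chains that make up muscle basement membranes, 0 passed the threshold for GH or genotype. Lamc1, the gamma 1 chain present in most laminins, had signals of 1837, 1567 and 1531 in KO with GH, 1651, 1567 and 1418 in WT with GH, 1895, 1546 and 1400 in KO, and 1633, 1838 and 2035 in WT. Lamb1, the beta 1 chain, had 628, 566 and 528 in KO with GH, 510, 625 and 552 in WT with GH, 803, 685 and 528 in KO, and 685, 697 and 704 in WT. In WT the 3 arrays with GH lay below the 3 without for Lamb1, at -0.30 ± 0.134 (limma adjusted p = 0.137), while in KO the groups met at 528. Its 3 probe sets above the filter differed in sign for GH, from -0.67 to 0.14 in KO and from -0.51 to 0.21 in WT, and averaging all of its probe sets gave 0.06 in KO and 0.13 in WT. Without KO 3 the value in KO was -0.36 (limma adjusted p = 0.0446), and without KO 1 it was -0.07. Lamb2, the beta 2 chain enriched at the neuromuscular junction, had 1501, 1526 and 1397 in KO with GH, 1190, 1362 and 1119 in WT with GH, 1420, 1131 and 725 in KO, and 964, 1306 and 1301 in WT. Array KO 3 was the lowest of the 12, and GH over no GH in KO was 0.48 ± 0.185 (limma adjusted p = 0.0757). That value was 0.21 without KO 3 (limma adjusted p = 0.296) and 0.69 without KO 1 (limma adjusted p = 0.0116), and array quality weights gave 0.38 (limma adjusted p = 0.0369). Lama5, a broadly expressed alpha chain, had 780, 704 and 744 in KO with GH, against 542, 639 and 654 in WT with GH, at 0.27 ± 0.112 (limma adjusted p = 0.224), and its second probe set above the filter gave 0.60.

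Itgb6 encodes the beta 6 chain, an epithelial partner of alpha v that activates TGF-beta, and lies at chr2:60598292-60722603. Its signal was 470, 441 and 429 in WT with GH, against 153, 272 and 156 in WT without. In KO it was 391, 396 and 345 with GH, against 185, 266 and 238 without. All 6 arrays with GH lay above all 6 without. The log2 fold change was 1.15 ± 0.184 in WT (limma adjusted p = 0.000575) and 0.67 ± 0.184 in KO (limma adjusted p = 0.0156), with an interaction of -0.48 ± 0.261 (limma adjusted p = 0.559). The second probe set gave 0.14 in WT and 0.39 in KO. The call in KO was lost without KO_GH 1, KO_GH 2 or KO 1 (adjusted p of 0.0548 to 0.0676), and with the actin ratio as a covariate (0.92, limma adjusted p = 0.481).

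Itgb5, another partner of alpha v, lies at chr16:33829665-33949338. Its signal was 2949, 2905 and 2739 in KO with GH, against 3736, 3717 and 4259 in KO without. In WT it was 3533, 3546 and 3269 with GH, against 3477, 4008 and 3238 without. The KO groups were apart and the WT groups overlapped. The log2 fold change of GH was -0.44 ± 0.0883 in KO (limma adjusted p = 0.00227) and -0.05 ± 0.0883 in WT (limma adjusted p = 0.76), with an interaction of -0.39 ± 0.125 (limma adjusted p = 0.228). Its 4 probe sets did not give 1 answer: GH in KO was between -0.61 and 0.08, with mean signals of 841 and 2864 in KO with GH against 1292 and 3904 in KO on 2 of them, and of 3341 and 1120 against 3246 and 1058 on the other 2. KO over WT with GH was -0.27 (limma adjusted p = 0.117). With only the arrays of these 2 groups in the fit its adjusted p was 0.0103. For GH in KO the fit with the actin ratio gave -0.34 (limma adjusted p = 0.605). Itgav, the alpha v chain itself, was not called in any comparison (log2 fold changes from -0.06 to 0.13).

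Itga4 encodes the alpha 4 chain, with which leukocytes bind VCAM1 and which muscle precursors also carry, and lies at chr2:79255426-79333114. Its signal was 207, 231 and 219 in KO with GH, against 312, 378 and 279 in WT with GH. Without GH it was 315, 302 and 384 in KO, against 384, 270 and 304 in WT. The 3 KO arrays with GH were the lowest of the 12. GH in KO gave -0.55 ± 0.155 (limma adjusted p = 0.0177), and KO over WT with GH -0.51 ± 0.155 (limma adjusted p = 0.0845). With only the 2 groups with GH in the fit that difference had an adjusted p of 0.0406, and without KO 3 and WT 1 it was 0.0327. The second probe set above the filter went the other way with GH, by 0.76 in KO and 0.93 in WT, and its mean signal was 164 in KO with GH against 88.8 in KO. Averaged over all 5 probe sets, GH in KO was 0.39 (limma adjusted p = 0.173), so the direction depends on the probe set. Without KO_GH 1, KO_GH 3 or KO 3 the adjusted p was 0.0502 to 0.067, and with the actin ratio as a covariate the value was -0.87 (limma adjusted p = 0.402).

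Itga7 and Itgb1, whose integrin anchors muscle fibres, showed no call in the main fit, nor did Itga6 and Itga10. Itga7, the laminin-binding alpha chain of muscle, had signals of 1564, 1538 and 1491 in KO with GH, against 1352, 1339 and 1448 in WT with GH. Without GH it was 1569, 1285 and 1553 in KO, against 1309, 1302 and 1146 in WT. With GH the genotypes did not overlap, and without GH they overlapped through KO 2. The log2 fold change of KO over WT was 0.15 ± 0.0928 with GH and 0.22 ± 0.0928 without, and their mean was 0.19 ± 0.0656 (limma adjusted p = 0.135). Itgb1, the beta chain shared by most of these receptors, had signals of 3374, 3272 and 3230 in KO with GH, 3640, 3185 and 3361 in WT with GH, 3598, 3387 and 3424 in KO, and 4295, 3148 and 3598 in WT. The KO arrays with GH lay just below those without and every other pair of groups overlapped, and the 4 log2 fold changes ran from -0.11 to -0.04 (limma adjusted p of 0.49 to 0.881). Over the 3 Itgb1 probe sets above the filter, KO over WT ran from -0.04 to 0.29 with GH and from -0.24 to -0.07 without. GH over no GH ran from -0.07 to 0.33 in KO and from -0.21 to -0.11 in WT. Averaging all Itgb1 probe sets gave 0.23 for KO over WT with GH and 0.16 for GH in KO (limma adjusted p = 0.304 and 0.301). With arrays centred on the median of all probe sets, Itgb1 in WT with GH was -0.29 (limma adjusted p = 0.0466). Itga6, which binds laminin with beta 1 or beta 4, had 1009, 935 and 1128 in KO with GH against 1363, 1227 and 1178 in KO, and 861, 1018 and 951 in WT with GH against 978, 1557 and 1250 in WT, at -0.29 ± 0.137 and -0.39 ± 0.137 (limma adjusted p = 0.142 and 0.0615). Without WT 1 the Itga6 value in WT was -0.56 (limma adjusted p = 0.00536). Array quality weights gave Itga6 -0.29 in KO and -0.43 in WT (limma adjusted p = 0.0458 and 0.0178). Itga10, a collagen-binding alpha chain whose promoter is shown above, had 164, 115 and 162 in KO with GH against 59.2, 87.8 and 115 in KO, and 100, 103 and 107 in WT with GH against 37.8, 83.3 and 59.2 in WT. Its log2 fold change with GH was 0.63 in both genotypes (limma adjusted p = 0.0819 in KO and 0.0983 in WT). With array quality weights the value in KO was 0.66 (limma adjusted p = 0.0296).

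Itgb2, the beta chain of the leukocyte integrins, had signals of 160, 131 and 156 in KO with GH, against 248, 241 and 153 in KO without. In WT it was 178, 182 and 170 with GH, against 301, 221 and 286 without. The WT groups did not overlap, and the KO groups overlapped through KO 3. GH gave -0.43 ± 0.182 in KO (limma adjusted p = 0.0967) and -0.54 ± 0.182 in WT (limma adjusted p = 0.0514). In WT it passed under 7 other processing settings, with quantile normalization at -0.62 (limma adjusted p = 0.0283), and without KO 1, KO 3 or WT 2 (adjusted p of 0.021 to 0.0491). In KO it passed without KO 3, at -0.63 (limma adjusted p = 0.0158), and without WT 1 and KO 3 at -0.63 (limma adjusted p = 0.0118). KO over WT was -0.21 with GH and -0.32 without (limma adjusted p = 0.632 and 0.561). Itgb7 and Itgb2l were dim, with signals of 38.6 to 212 and 16.7 to 135 over the 12 arrays, and 0 of their comparisons passed.

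The muscle integrins (Itga5, Itga6, Itga7 and Itgb1) were set beside the leukocyte integrins (Itga4, Itgb2, Itgb2l and Itgb7). These names are labels of the groups, and which cells the Itga5 RNA came from was not tested. In the muscle group limma called 1 of 4 higher in KO over WT with GH (2.42% of all genes) and 1 of 4 higher with GH in KO (8.93% of all genes), Itga5 each time, and 0 in the other 2 comparisons. In the leukocyte group it called 1 of 4 lower with GH in KO, Itga4, where 15.4% of all genes were lower, and 0 in the other 3 comparisons. The median log2 fold change with GH was -0.01 in KO and 0.02 in WT for the muscle group, and -0.24 in KO and -0.28 in WT for the leukocyte group. The leukocyte medians hide a split. In WT the values were -0.54 for Itgb2, -0.53 ± 0.51 for Itgb2l, -0.03 for Itgb7 and 0.02 for Itga4. In KO they were -0.43, -0.04, 0.01 and -0.55, and the Itga4 direction depends on the probe set. The mean log2 level of the muscle group was 10.32, 10.18 and 10.25 in KO with GH, against 9.99, 9.88 and 9.96 in WT with GH, and 10.22, 9.97 and 10.01 in KO, against 9.99, 9.94 and 10.02 in WT. The KO arrays with GH lay above the WT arrays with GH, and the groups without GH overlapped. Most of that separation was Itga5, at 1.01 for KO over WT with GH, against 0.15 for Itga7, 0.11 for Itga6 and -0.04 for Itgb1. For the leukocyte group it was 7.34, 7.16 and 7.08 in KO with GH, against 6.86, 7.63 and 7.35 in WT with GH, and 7.65, 7.66 and 7.03 in KO, against 7.92, 7.32 and 7.40 in WT, with overlap in every pair.

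Leukocyte markers moved with GH as well. Of 14 tested, limma called 3 higher (S100a8, S100a9 and Cd14) and 7 lower in KO, and 3 higher (the same 3 genes) and 6 lower in WT. Cd74, an antigen presentation gene, had log2 fold changes of -1.59 in KO and -1.16 in WT (limma adjusted p = 1.84e-07 and 8.89e-06), while Ptprc, which all leukocytes carry, had -0.25 and -0.70 (limma adjusted p = 0.489 and 0.0518). The summed signal of the 15 markers measured was 10168 to 10431 in KO with GH, 11389 to 11818 in WT with GH, 14362 to 18965 in KO and 14072 to 20270 in WT. For KO over WT, 0 higher and 1 lower (S100a9) were called with GH, and 0 without. The shares of all genes were 2.42% higher and 2.11% lower with GH, and 0.774% and 0.68% without. The part of leukocyte RNA in the values of Itga4 and Itgb2 was not tested.

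**Figure D3:**
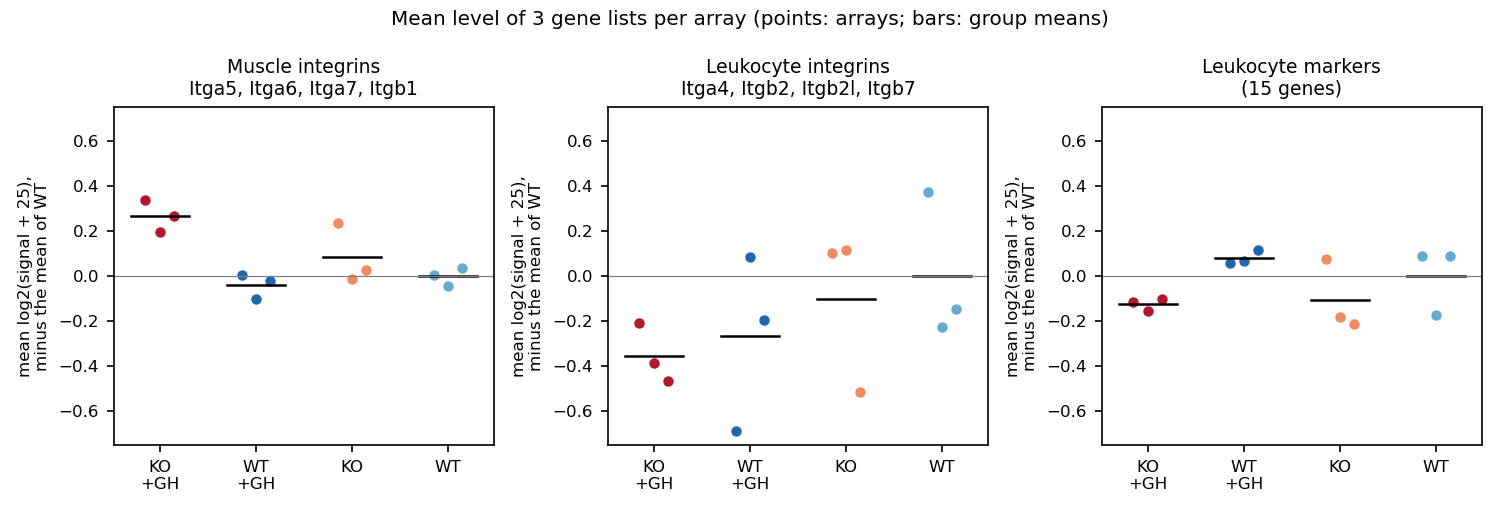
Mean log2(signal + 25) per array, minus the mean of WT (y axis), for the muscle integrins, the leukocyte integrins and the 15 leukocyte markers in KO with GH, WT with GH, KO and WT, with bars at group means of 3 arrays. The mean of the muscle integrins on the 3 KO arrays with GH, set mostly by Itga5, lies above that on the 3 WT arrays with GH, and the leukocyte integrins overlap in every pair of groups.

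Markers of fibroblasts, endothelium and other cell types were set beside Lama2 and Lama4. The counts below stand against shares of all genes called with GH. These were 8.93% higher and 15.4% lower in KO, and 7.33% higher and 11.8% lower in WT. Of 8 fibroblast markers, GH was accompanied by 4 lower and 0 higher in each genotype, Lum at -0.55 in KO and -0.44 in WT (limma adjusted p = 0.000398 and 0.00247). Their summed signal was 76645 to 78705 in KO with GH, 73202 to 86923 in WT with GH, 89511 to 95815 in KO and 90175 to 96996 in WT. Of 8 endothelial markers, 1 was higher and 3 lower in KO, and 2 higher and 3 lower in WT. Kdr, a VEGF receptor, had -0.91 in KO and -1.51 in WT (limma adjusted p = 0.000141 and 1.71e-06), and Vwf 0.75 and 0.49 (limma adjusted p = 0.000615 and 0.013). The endothelial sum was 5519 to 6060 in KO with GH, 5415 to 5704 in WT with GH, 6109 to 7078 in KO and 5871 to 6786 in WT. Of 11 muscle fibre markers, 1 was higher and 8 lower with GH in KO, and 0 in WT. Of 7 smooth muscle and pericyte markers, 5 were higher and 1 lower in KO, and 3 higher and 0 lower in WT. Of 5 adipocyte markers, 3 were lower with GH in each genotype. Of 5 Schwann cell markers 2 were higher in KO and 1 in WT, of 5 satellite cell markers 0 in KO and 1 in WT, and of 3 platelet markers 1 was lower in each genotype. The part of these cell types in the fall of Lama2 and Lama4 was not tested.

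Inside the cell, integrins are linked to actin by an adhesion complex. Of 26 genes, limma called 3 higher and 0 lower in KO over WT with GH, where 2.42% of all genes were higher and 2.11% lower, and 0 without GH (0.774% and 0.68%; 5 of the 26 had an unadjusted p under 0.05). Flnc, the muscle filamin that crosslinks actin, had signals of 13430, 13530 and 13970 in KO with GH, against 7391, 6674 and 6592 in WT with GH. Without GH it had 4404, 5867 and 4918 in KO, against 3471, 3833 and 4199 in WT. KO lay above WT in both settings, at 0.99 ± 0.1 with GH (limma adjusted p = 1.82e-05) and 0.39 ± 0.1 without (limma adjusted p = 0.0704). The adaptors Pxn (0.35, limma adjusted p = 0.0233) and Zyx (0.43, limma adjusted p = 0.0239) were the other 2. Without any 1 of the 6 arrays with GH, Pxn had adjusted p-values of 0.0508 to 0.137, and Zyx lost its call without KO_GH 1, KO_GH 2, KO_GH 3, WT_GH 1 or WT_GH 2 (adjusted p of 0.0655 to 0.113). With the actin ratio as a covariate neither passed, at adjusted p of 0.56 and 0.605. For the mean genotype difference 3 were higher (Flnc, Pxn and Itgb1bp2, which binds beta 1) and 2 lower (Lims1 and Parvb, of the kinase complex behind the integrin tail), where 2.88% of all genes were higher and 2.47% lower. The calls on Lims1 (-0.29) and Parvb (-0.44) were lost in 8 and 9 of the 12 fits without 1 array, and averaging probe sets gave -0.09 and -0.19 (limma adjusted p = 0.657 and 0.476). Pxn lost that call in 6 of the 12. For the interaction 0 of 26 passed (4 with an unadjusted p under 0.05, smallest adjusted p of 0.0736, for Flnc).

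With GH, 8 of the 26 adhesion complex genes were higher and 1 lower in KO, where 8.93% of all genes were higher and 15.4% lower. In WT 5 were higher and 3 lower, where 7.33% of all genes were higher and 11.8% lower. Flnc had log2 fold changes of 1.44 in KO and 0.84 in WT (limma adjusted p = 1.29e-07 and 4.69e-05), and Tns1, a tensin that joins beta chains to actin, 0.93 and 0.90 (limma adjusted p = 0.000234 and 0.000415). Pxn had 0.60 and 0.38 (limma adjusted p = 0.000153 and 0.00611). Fermt2, a kindlin that activates integrins, was called in KO, at 0.42 (limma adjusted p = 0.000515), and in WT had 0.15 (limma adjusted p = 0.146). Itgb1bp1, which restrains beta 1, was lower in both, at -0.33 and -0.39 (limma adjusted p = 0.0158 and 0.00847). With the actin ratio as a covariate, Tns1 (0.41 in KO and 0.62 in WT), Pxn (0.42 and 0.28), Fermt2 in KO (0.21) and Itgb1bp1 in WT (-0.27) were no longer called, at limma adjusted p of 0.125 to 0.672.

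The dystrophin and dystroglycan complex, the second laminin receptor of muscle, had 0 of 17 genes past the threshold in all 6 comparisons. Unadjusted p under 0.05 was found for 4 genes in KO over WT with GH, 4 without GH, 3 for GH in KO, 1 for GH in WT, 1 for the interaction and 7 for the mean genotype difference, and the smallest adjusted p was 0.0513. Dag1, dystroglycan, had log2 fold changes of -0.02 and 0.08 in KO over WT with and without GH, and Dmd, dystrophin, had 0.02 and 0.19. The integrin chains whose symbols carry no number (5 measured, 3 tested) also had 0 calls, and 0 of them had an unadjusted p under 0.05.

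Among basement membrane partners of laminin, the collagen Col15a1, perlecan and a nidogen were lower with GH in both genotypes, and 0 of 15 differed by genotype in either setting (2 with GH and 1 without had an unadjusted p under 0.05). In KO 3 of 15 were lower and 1 higher (15.4% and 8.93% of all genes), and in WT 4 lower and 1 higher (11.8% and 7.33%). Col15a1, which lies at the outer face of the muscle basement membrane, had signals of 553, 488 and 562 in KO with GH, against 1046, 1157 and 1078 in KO. In WT it had 671, 541 and 611 with GH, against 883, 965 and 949 without. The arrays with GH were all below those without, at 0.499-fold in KO and 0.659-fold in WT (limma adjusted p = 7.18e-06 and 0.000829). Hspg2, perlecan, had -0.76 and -0.48 (limma adjusted p = 0.000342 and 0.0106), and Nid2, a nidogen that links laminin to collagen IV, -0.94 and -0.73 (limma adjusted p = 0.00079 and 0.00597). Col4a5 was called in WT, at -0.84 (limma adjusted p = 0.00495). The higher ones were Fbln2 in KO (0.40, limma adjusted p = 0.0161) and Col4a1 in WT (0.35, limma adjusted p = 0.0245). With the actin ratio as a covariate 0 of Col15a1, Hspg2, Nid2, Col4a5 and Fbln2 kept their calls (limma adjusted p of 0.0972 to 0.809), and Fbln2 averaged over its probe sets was 0.13 (limma adjusted p = 0.434).

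Of the non-laminin ligands of integrins, Npnt differed by genotype both with and without GH. Npnt encodes nephronectin, a ligand of the integrin of alpha 8 and beta 1. Its signal was 364, 406 and 377 in KO with GH, against 768, 684 and 740 in WT with GH. Without GH it was 434, 399 and 342 in KO, against 1576, 1223 and 1662 in WT. All 6 KO arrays lay below all 6 WT arrays, and within WT the arrays with GH lay below those without. KO over WT was -0.89 ± 0.124 with GH (limma adjusted p = 0.000378) and -1.85 ± 0.124 without (limma adjusted p = 1.46e-06), and averaged over all its probe sets the value with GH was -0.37 (limma adjusted p = 0.247). For the chosen probe set the value with GH was -0.91 with the actin ratio as a covariate (limma adjusted p = 0.0539). Its receptor chain Itga8 had 171, 188 and 201 in KO with GH, 179, 139 and 172 in WT with GH, 143, 129 and 101 in KO, and 184, 133 and 138 in WT. Itga8 was not called in any comparison of the main fit, and GH in KO gave 0.51 ± 0.180 (limma adjusted p = 0.0521). With array quality weights that value was 0.47 (limma adjusted p = 0.0306).

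In KO over WT with GH, 3 of 16 ligands tested were lower, Npnt with Ccn2 (-0.43, limma adjusted p = 0.00759) and Icam1 (-0.80, limma adjusted p = 0.0155), and 0 higher, where 2.11% of all genes were lower and 2.42% higher. With the actin ratio as a covariate Ccn2 was -0.31 and Icam1 -1.02 (limma adjusted p = 0.464 and 0.15). Icam1, the endothelial partner of the beta 2 integrins, had signals of 346, 318 and 326 in KO with GH, against 581, 620 and 578 in WT with GH. Without GH it had 207, 165 and 164 in KO, against 213, 116 and 208 in WT. With GH the genotypes were apart and without GH they overlapped, and the adjusted p reached 0.0677 with 1 of the arrays with GH left out (all but KO_GH 1 lost the call). For GH in KO 2 were higher (Icam1 and Thbs1) and 3 lower (8.93% and 15.4% of all genes), and in WT 2 were higher and 4 lower (7.33% and 11.8%). Icam1 had 0.81 in KO and 1.64 in WT (limma adjusted p = 0.00426 and 2.23e-05), and the interaction was -0.83 (limma adjusted p = 0.2). Fn1, fibronectin, the ligand of alpha 5 and beta 1, had -0.66 in KO and -0.62 in WT (limma adjusted p = 0.00133 and 0.00251). Its signal was 3602, 3834 and 3536 in KO with GH, against 6709, 5667 and 5079 in KO, and 3267, 3929 and 3750 in WT with GH, against 6734, 4784 and 5489 in WT. Averaged over its probe sets Fn1 was -0.32 in KO (limma adjusted p = 0.0685), and with the actin ratio -0.83 in KO and -0.72 in WT (limma adjusted p = 0.309 and 0.0671). With that covariate Icam1 in KO was 0.39 (limma adjusted p = 0.787). KO over WT with GH was 0.01 for Fn1 (limma adjusted p = 0.987). Tnxb, a tenascin, had -1.27 in KO and -0.84 in WT (limma adjusted p = 0.000312 and 0.00777).

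**Figure D4:**
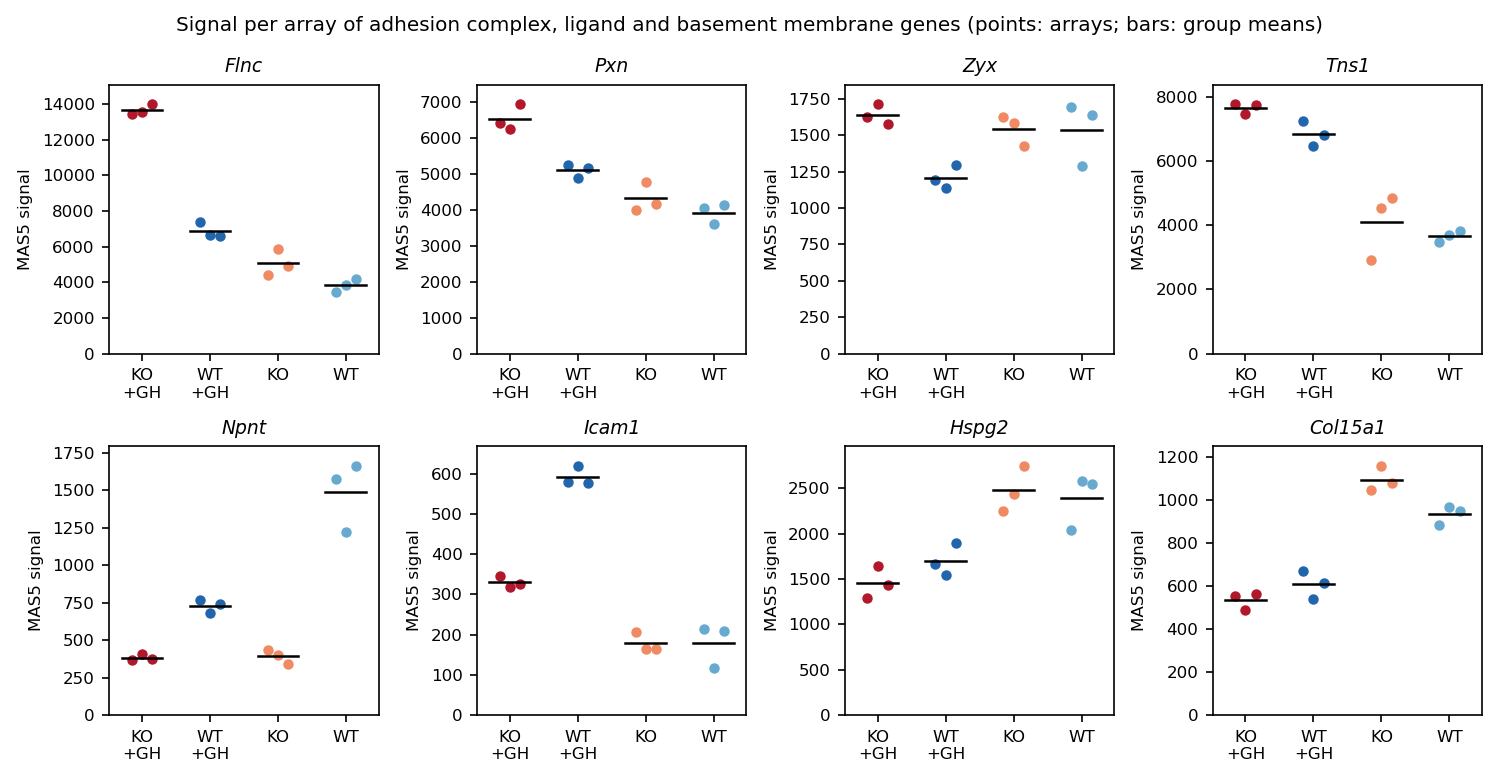
MAS5 signal (linear scale, axis from 0) on each array for Flnc, Pxn, Zyx and Tns1 of the adhesion complex, the ligands Npnt and Icam1, and the basement membrane genes Hspg2 and Col15a1, in KO with GH, WT with GH, KO and WT, with bars at the mean of 3 arrays. Flnc stands at 13430 to 13970 in KO with GH and 6592 to 7391 in WT with GH, and Npnt at 342 to 434 on the 6 KO arrays against 684 to 1662 on the 6 WT arrays.

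The other members tested had 0 calls in the main fit. Itga3, a laminin-binding alpha chain, and Itga9, a relative of alpha 4, had log2 fold changes with GH of 0.12 and 0.40 in KO and of 0.43 and 0.35 in WT (limma adjusted p of 0.0748 to 0.661). Itgb4, the partner of alpha 6 in epithelia, had 0.63 in KO and 0.31 in WT (limma adjusted p = 0.103 and 0.455). With array quality weights Itgb4 and Itga9 passed for GH in KO, at 0.63 and 0.40 (limma adjusted p = 0.0485 and 0.0322). Itga1, which binds collagen, had -0.10 and -0.38 (limma adjusted p = 0.729 and 0.167), and Itga2b, the platelet alpha chain, -0.05 and -0.17 (limma adjusted p = 0.901 and 0.666). For KO over WT their log2 fold changes ran from -0.28 to 0.31. A second Itga1 probe set above the filter went the other way with GH, by 0.54 in KO and 0.61 in WT, so that direction depends on the probe set.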

How the data were processed

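The authors deposited linear MAS5 signal intensity for 45101 probe sets, and MAS5 is named in the submitters' processing notes. Averaged over the 12 arrays, the mean signal without the lowest and highest 2% of probe sets was 500. This average does not show whether each array was scaled to 1 target before deposit. Probe sets of controls (64), several symbols (932) or no symbol (9160) were left out. Values were log2(signal + 25), a scale that understates the change of dim genes. A filter at the 40th percentile of mean log2 values left 12654 of 18193 genes, tested with limma 3.58.1 and statmod 1.5.0 in R 4.3.3 (4 group means, 12 arrays, 8 residual degrees of freedom, eBayes with trend and robust set). Adjusted p-values are Benjamini-Hochberg over the 12654 genes, with a threshold of 0.05, two-sided. The fit was tested on simulated data. With 3 arrays a group, precision is limited by their number. Values are given per array for members past the threshold and for Itga7, Itgb1, Itgb2, Lama2, Lamb1, Lamb2 and Lamc1; Lamc3, Lama5, Itga6, Itga10 and Itga8 were added after their values were seen, as were single markers. Of other lists up to 4 called genes per comparison are named. Members and lists were chosen with earlier results of these data known. Coordinates and promoters are RefSeq's for GRCm38.p6; symbols were updated through Entrez identifiers. Alternatives covered the pseudocount, filter, scaling, probe sets, model, array weights, the actin ratio and left-out arrays.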

Additional observations from a re-analysis of the deposited data

Results flagged for a closer look

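Npnt, the nephronectin gene, stood out because the GH difference itself differed between the genotypes. GH over no GH was -0.03 ± 0.124 in KO and -0.99 ± 0.124 in WT, with an interaction of 0.96 ± 0.176 (limma adjusted p = 0.0116). Over the alternatives the interaction was 0.72 to 1.09. It did not pass when averaged over all probe sets (0.72, limma adjusted p = 0.221) and with the actin ratio as a covariate (0.95, limma adjusted p = 0.136).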

How the results depend on the processing

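No member was called in KO over WT without GH, or in the interaction, under any alternative run. For KO over WT with GH the main count of 1 was 0 without _x_at and _s_at probe sets (which removes the Itga5 probe set), 0 with the actin ratio as a covariate, 3 with only the 2 groups compared, 3 with array quality weights and 3 without WT 1 and KO 3. Over all genes, limma called 306 higher and 267 lower in the main fit, and 283 and 264 without those probe sets. It called 77 and 44 with the actin ratio, and 618 and 682 with only the 2 groups. It called 655 and 707 with array weights, and 499 and 529 without WT 1 and KO 3. For GH in WT the main count of 4 was 10 with arrays centred on the median of all probe sets, 7 with array weights and 1 with the actin ratio. Over all genes the calls were 927 higher and 1489 lower in the main fit, and 490 and 3939 with that centring. They were 1177 and 1882 with array weights, and 248 and 211 with the actin ratio. For GH in KO the main count of 6 was 14 with array weights, 12 without WT 1 and KO 3 and 0 with the actin ratio. The calls over all genes were 1130 higher and 1948 lower in the main fit, and 1581 and 2704 with array weights. They were 1321 and 2241 without WT 1 and KO 3, and 73 and 18 with the actin ratio. For the mean genotype difference the main count of 1 was 0 when probe sets were averaged, 0 without _x_at and _s_at probe sets and 0 with the actin ratio. In that order, the calls over all genes were 324 higher and 313 lower, 345 and 303, and 127 and 110. The main fit gave 364 and 312. Leaving out 1 array gave 0 to 0 calls for KO over WT without GH, 0 to 2 for KO over WT with GH, 3 to 5 for GH in WT, 4 to 9 for GH in KO, 0 to 0 for the interaction and 0 to 1 for the mean genotype difference. Reversed in sign were Itga4, GH in KO, averaged over its probe sets (0.39) and Thbs1, GH in KO, with the actin ratio (-0.45). Centring on the median of all probe sets put the median log2 fold change of all genes at -0.245 for GH in KO and -0.240 in WT, and 13.3% and 11.1% of calls were higher, against 36.7% and 38.4% as the table was given. Centring on the median of the genes tested, added after the data were seen, gave 49.9% and 50.4%, and 8 and 4 members called. Over all genes it called 1359 higher and 1362 lower in KO, and 1113 and 1097 in WT. Under centring on all probe sets Itga7 and Lamb2 in WT turned to -0.05 and -0.14. Over 91 named differences, leaving out 1 array kept call and direction 984 times, lost a call 79 times, gained one 6 times and turned an uncalled sign 23 times; other alternatives did so 1115, 76, 18 and 37 times. The actin ratio follows GH and separates KO with GH from WT with GH, so that fit has a wider error for both comparisons by construction. Causes of the other changes were not tested. No paired analysis was possible because the labels give no replicate numbers that groups share. Calls on dim genes rest on signals near background.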
